A study of Homo sapiens with 4 samples.

Results

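The genes described are 10 genes of the unfolded protein response and the integrated stress response: ATF4, DDIT3, DDIT4, ASNS, TRIB3, HSPA5, XBP1, HERPUD1, PPP1R15A and SESN2. They were chosen by gene symbol from the 30982 gene names of the array, and every non-control probe carrying one of these names was kept, which gave 15 of 41000 probes. ATF4, ASNS, TRIB3, HSPA5 and XBP1 had 2 probes each and the other 5 genes had 1. FaDu cells (a line from hypopharyngeal squamous cell carcinoma) and HSC3 cells (a line from squamous cell carcinoma of the tongue) were transfected with miR-489 or miR-504, and RNA was taken after 72 h. On each of 4 two-colour arrays, Cy5-labelled RNA of 1 miRNA transfectant was hybridised with Cy3-labelled RNA from control-miRNA cells of that line, so all 4 groups share transfection itself and differ in line and miRNA. There was 1 array per condition and no dye swap, so a dye effect of a probe could not be told apart from a change against control.

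Cells that accumulate unfolded protein in the endoplasmic reticulum (ER) activate the sensors PERK, IRE1 and ATF6. PERK shares its substrate, the translation factor eIF2α, with GCN2 (amino acid shortage), PKR and HRI, and phosphorylation of eIF2α lowers general translation while raising translation of ATF4. ATF4 then activates genes of amino acid supply and of stress adaptation, whereas ATF6 and the spliced form of XBP1 activate ER chaperone and degradation genes. ATF4 is controlled largely by translation and XBP1 by splicing, neither of which these probes measured.

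The mature miRNAs are shown because they are what distinguished the transfectants. The sequences are those of RefSeq (GRCh38.p14), with the seed, bases 2 to 8, in capitals. The sample labels do not state the arm, and both arms of miR-504 are given.
hsa-miR-489-3p: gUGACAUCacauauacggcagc
hsa-miR-504-5p: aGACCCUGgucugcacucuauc
hsa-miR-504-3p: gGGAGUGCagggcaggguuuc
The 3 seeds differ from one another.

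Promoter sequences are shown for members whose window holds a searched element. Elements of the ER and ATF4 branches of the response were searched for, with the cyclic AMP response element beside them. RefSeq promoter windows (250 bases before to 50 after the start) were found for 10 of 10 genes, in 16 windows. Both strands were searched for the ER stress response element ERSE (CCAAT, 9 bases of any kind, then CCACG), for ERSE-II (ATTGG, 1 base, CCACG), for TGATGNAA, a form of the element bound by ATF4 with C/EBP proteins, and for the cyclic AMP response element TGACGTCA. Of 35116 windows of this length, 0.0769% held ERSE, 0.0541% ERSE-II, 3.62% TGATGNAA and 1.85% TGACGTCA. Windows of 5 genes held a match, and the matched bases are in capitals.
HSPA5, chr9:125241371-125241429, minus strand: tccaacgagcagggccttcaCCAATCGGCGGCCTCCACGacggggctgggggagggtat
XBP1, chr22:28800583-28800641, minus strand: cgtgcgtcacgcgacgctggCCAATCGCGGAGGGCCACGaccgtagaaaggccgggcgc
HERPUD1, chr16:56931946-56932055, plus strand: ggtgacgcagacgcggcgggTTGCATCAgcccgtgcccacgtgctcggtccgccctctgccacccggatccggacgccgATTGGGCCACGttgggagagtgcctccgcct
ASNS, chr7:97872449-97872496, minus strand: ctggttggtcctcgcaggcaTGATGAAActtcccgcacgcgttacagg
PPP1R15A, chr19:48872343-48872390, plus strand: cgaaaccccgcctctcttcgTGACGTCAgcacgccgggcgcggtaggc
HSPA5 and XBP1 each held ERSE, at −66 and −52 from the start. HERPUD1 held ERSE-II at −117 and, on the opposite strand, TGATGNAA at −176. A match describes letters in the window and was not tested as a binding site.

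Values are log2 ratios of Cy5 over Cy3, from background-subtracted median spot intensities, centred on the median of probes well above background. Values below 0 mark a lower centred signal for the miRNA transfectant than for control cells. Rises and falls against control refer to these ratios, in which a dye effect of a probe may remain. Values given in fours follow the order FaDu with miR-489, FaDu with miR-504, HSC3 with miR-489, HSC3 with miR-504. Where a gene has 2 probes, the brighter is the one with the higher mean Cy3 signal. Of the 15 member probes, 14 were well above background in both channels on all 4 arrays. Replicate spots of other probes had a pooled standard deviation of 0.0874 to 0.0996 per array, and each member probe had 1 spot. PTPN11, which the study examined as a miR-489 target, had ratios of −3.25, −1.29, −3.22 and −1.04. All 8 squamous epithelial markers measured had control signals well above background on all arrays, as had 2 of 12 markers of other cell types (HBA1 and GFAP).

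By their brightest probes, HERPUD1, TRIB3 and ASNS were lower and DDIT4 was higher than control on all 4 arrays. The exception was DDIT4 in HSC3 with miR-504 under loess, with or without normexp, or the deposited ratios. The brightest probes of ATF4, HSPA5, XBP1 and SESN2 gave ratios between −0.27 and 0.18. The dimmer TRIB3 probe was positive and the dimmer HSPA5 probe negative on all 4 arrays. No single direction is therefore given for TRIB3 or HSPA5. Treating FaDu and HSC3 as replicates, limma called 8 of 14 member probes for miR-489 against control (4 lower, 4 higher) and 5 for miR-504 (4 lower, 1 higher) at an adjusted p of 0.05. Over all 20912 probes tested, 26.6% were called lower and 30.5% higher for miR-489, and 23.4% and 26.2% for miR-504. The members' 4 of 14 in either direction for miR-489 and 4 of 14 lower for miR-504 are thus near the shares of all probes. The 1 of 14 higher for miR-504 is below that share, and this difference was not tested. Total-signal normalisation changed the split over all probes to 8034 lower and 3897 higher for miR-489 and 7515 and 3175 for miR-504, from 5553 and 6384, and 4892 and 5488.

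A change of at least 2-fold was rare. By the brightest probe, 1 of 40 values, HERPUD1 in HSC3 with miR-489, was at least 2-fold lower and 0 were at least 2-fold higher. Among all genes, the shares at least 2-fold lower were 8.84%, 5.99%, 8.19% and 5.12%, and 2.85%, 2.35%, 2.71% and 1.97% were at least 2-fold higher. The median over the 10 members was 0.02, −0.12, −0.14 and −0.11, beside −0.03, −0.01, −0.03 and −0.02 over all genes whose Cy3 signal was above background.

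**Figure D1:**
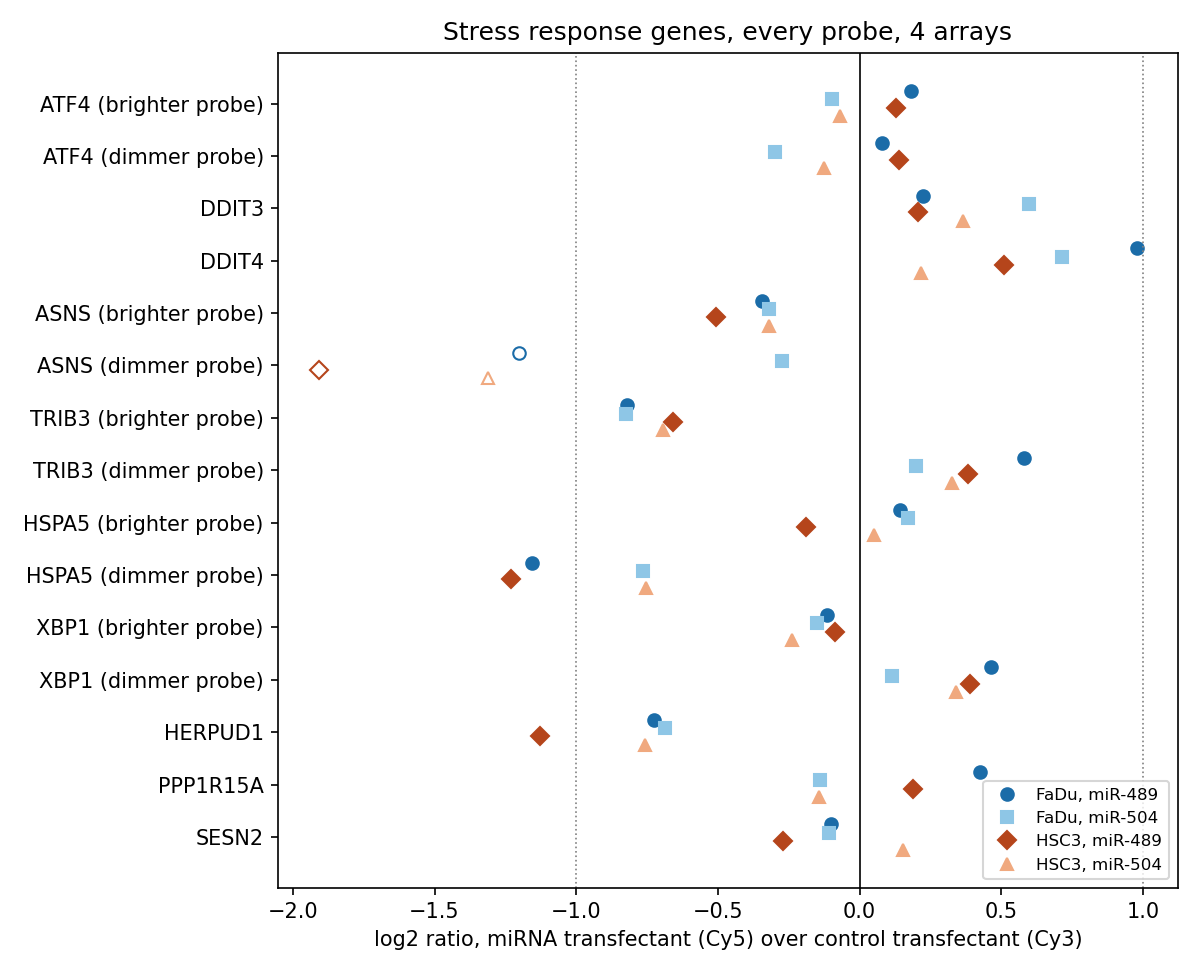
Log2 ratio of the miRNA transfectant over control (x axis) for each of the 15 probes (y axis) on the 4 arrays, one marker per array, with dotted lines at 2-fold and open markers where a channel was not well above background. HERPUD1 and the brighter TRIB3 probe lie to the left of 0 on all 4 arrays, DDIT4 lies to the right in this setting, its HSC3 miR-504 value turning to −0.04 with the deposited ratios, and the probes of HSPA5, TRIB3 and XBP1 separate within a gene.

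ATF4, the transcription factor at the centre of the integrated stress response, gave small ratios with either miRNA. Its brighter probe read 0.18, −0.10, 0.13 and −0.07 and its other probe 0.08, −0.30, 0.14 and −0.12. Both miR-489 arrays thus lay above both miR-504 arrays, but neither probe passed the test for either miRNA (adjusted p = 0.0908 to 0.394 from limma). The positive miR-489 ratios of the brighter probe turned negative with loess (with or without normexp), total-signal normalisation, the deposited ratios and the mean control of the line, with a lowest value of −0.27. The brighter ATF4 probe was called higher with miR-489 under normexp (0.21, adjusted p = 0.0406) and without background subtraction (0.31, adjusted p = 0.0096), but lower under the deposited ratios (−0.23, adjusted p = 0.0437). With miR-504 it was called lower under loess (−0.37, adjusted p = 0.0118), normexp and loess, total-signal normalisation and the deposited ratios. The dimmer ATF4 probe was called higher with miR-489 without background subtraction (0.25, adjusted p = 0.0272) and lower with miR-504 under loess (−0.35, adjusted p = 0.0215), normexp and loess, and total-signal normalisation.

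DDIT3 encodes CHOP, a transcription factor induced downstream of ATF4. Its control signal was low, between 103.0 and 197.0 intensity units on the 4 arrays. DDIT3 ratios were 0.22 and 0.60 in FaDu and 0.21 and 0.37 in HSC3, with miR-489 given first. DDIT3 rose with miR-504 (0.48 ± 0.09, SE, n = 2 lines, adjusted p = 0.0103), and for miR-489 the value was 0.21 (adjusted p = 0.0937). All 4 ratios were positive, and the FaDu miR-489 value became −0.18 against the mean control of the line. The miR-504 call was lost without the FaDu miR-504 array (0.37, adjusted p = 0.116), and with miR-489 DDIT3 was called higher under the deposited ratios (0.29, adjusted p = 0.0453).

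DDIT4 (REDD1), an inhibitor of mTORC1 signalling, had the highest ratios of the members. They were 0.98 and 0.71 in FaDu and 0.51 and 0.22 in HSC3 with miR-489 and miR-504. DDIT4 rose with miR-489 (0.74 ± 0.17, SE, adjusted p = 0.0152) and gave 0.46 with miR-504 (adjusted p = 0.0684). The miR-489 call was lost with loess, with the deposited ratios and without the FaDu miR-489 array (0.51, adjusted p = 0.110), and the HSC3 miR-504 ratio became −0.04 with the deposited ratios. With miR-504, DDIT4 was called higher with the cell line as a replicate block (0.46, adjusted p = 0.0083), under normexp (adjusted p = 0.0290) and without background subtraction (adjusted p = 0.0149). Against the mean control of the line, DDIT4 read 0.70 and 0.84 in FaDu and 0.016 and 0.49 in HSC3, so that the order of the miRNAs turned in both lines. With the 2 miRNAs taken as replicates of a line, the FaDu ratios of DDIT4 exceeded those of HSC3 by 0.48 (limma, unadjusted p = 0.0473). This difference did not pass over all probes (adjusted p = 0.9998), where 0 of 20912 probes (0.0%) were called and 668 had an unadjusted p below 0.05.

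ASNS, which makes asparagine, gave −0.35 and −0.32 in FaDu and −0.51 and −0.32 in HSC3. The 4 values span 0.19, and ASNS fell with miR-489 (−0.43 ± 0.08, SE, adjusted p = 0.0094) and with miR-504 (−0.32 ± 0.08, SE, adjusted p = 0.0267). The miR-504 call was lost without either miR-504 array (adjusted p = 0.171 and 0.168) and with no background subtraction, and the miR-489 call without the HSC3 miR-489 array (adjusted p = 0.0622). The second ASNS probe, assigned by the array design to another accession, was above background in both channels only on the FaDu miR-504 array, where it read −0.27. Elsewhere its Cy5 signal was not well above background, and no direction is drawn from it, though its values enter the counts by averaged and lowest probe.

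TRIB3 encodes a pseudokinase that restrains ATF4 and AKT signalling. Its brighter probe read −0.82 and −0.82 in FaDu and −0.66 and −0.70 in HSC3, and fell with miR-489 (−0.74 ± 0.09, SE, adjusted p = 0.0023) and miR-504 (−0.76 ± 0.09, SE, adjusted p = 0.0029). The dimmer probe gave the opposite sign, 0.58, 0.20, 0.38 and 0.33, and was called higher with miR-489 (0.48, adjusted p = 0.0087), a call lost without the FaDu miR-489 array (adjusted p = 0.0604). With miR-504 it gave 0.26 (adjusted p = 0.0621), called under normexp, without background subtraction and with the mean intensity. No single direction can therefore be given for TRIB3. The probes lie 1191 bases apart on the deposited coordinates, the brighter being further towards the 3′ end.

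SESN2, a leucine sensor of the mTORC1 pathway, gave −0.10 and −0.11 in FaDu and −0.27 and 0.15 in HSC3, and passed neither test (adjusted p = 0.172 and 0.871), but was called lower with miR-489 under total-signal normalisation (−0.37, adjusted p = 0.0236). PPP1R15A encodes GADD34, which directs dephosphorylation of eIF2α and so closes the response. It read 0.42 and −0.14 in FaDu and 0.19 and −0.14 in HSC3, positive on both miR-489 arrays and negative on both miR-504 arrays. Against the mean control of the line the first 3 of the 4 PPP1R15A values reversed, to −0.08 and 0.21 in FaDu and −0.05 in HSC3 with miR-489. PPP1R15A was called higher with miR-489 (0.30 ± 0.09, SE, adjusted p = 0.0362), a call that was lost with loess, total-signal normalisation and the deposited ratios. With miR-504, PPP1R15A was called lower under total-signal normalisation (−0.32, adjusted p = 0.0309). The miR-489 call was also lost without the FaDu miR-489, FaDu miR-504 or HSC3 miR-504 array.

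HERPUD1, a component of ER-associated degradation, carried the lowest ratios among genes with 1 probe. They were −0.73 and −0.69 in FaDu and −1.13 and −0.76 in HSC3. HERPUD1 fell with miR-489 (−0.93 ± 0.12, SE, adjusted p = 0.0027) and with miR-504 (−0.72 ± 0.12, SE, adjusted p = 0.0067). The miR-489 call held in every alternative run, whereas the miR-504 call was lost without either miR-504 array (adjusted p = 0.0608 and 0.0682).

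HSPA5 encodes BiP, the main ER chaperone. Its brighter probe read 0.14 and 0.17 in FaDu and −0.19 and 0.05 in HSC3 and passed neither test (adjusted p = 0.866 and 0.425). The dimmer probe read −1.15 and −0.77 in FaDu and −1.23 and −0.75 in HSC3 and was called lower with miR-489 (−1.19 ± 0.08, SE, adjusted p = 0.0009) and with miR-504 (−0.76 ± 0.08, SE, adjusted p = 0.0022). The probes differed by 0.80 to 1.30 on each array. They lie 2215 bases apart, the dimmer being further towards the 3′ end, and no single direction can be given for HSPA5.

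XBP1, whose spliced form drives chaperone and degradation genes, read −0.12 and −0.15 in FaDu and −0.09 and −0.24 in HSC3 by its brighter probe, which was not called for miR-489 (adjusted p = 0.304) or miR-504 (adjusted p = 0.0896). That probe was called lower for both miRNAs under loess (adjusted p = 0.0278 and 0.0198), normexp and loess, total-signal normalisation and the deposited ratios. Its dimmer probe read 0.46, 0.11, 0.39 and 0.34 and was called higher with miR-489 (0.43 ± 0.09, SE, adjusted p = 0.0129), a call lost with total-signal normalisation and without either miR-489 array (adjusted p = 0.0783 and 0.0515). Over 3034 genes with 2 probes above background, the probes differed by over 2-fold for 7.61% to 10.7% of genes per array, with median differences of 0.32 to 0.35. Probe differences of the size seen for HSPA5 and TRIB3 also occurred in other genes.

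In the direct comparison of the miRNAs, what is common to the arrays of a line cancels from the difference. limma called 164 probes lower (0.784%) and 66 higher (0.316%) with miR-489 than with miR-504, and 0 of 14 member probes. Cell line was not a term of this fit, so the spread between lines stayed in its error. With the line as a block, 578 of all probes and 0 of 14 member probes were called. Without the block, an unadjusted p below 0.05 was found for 3 of 14 member probes, near the share of all probes (3870 of 20912). The 3 were the dimmer HSPA5 probe (−0.43 ± 0.11, SE, adjusted p = 0.142), PPP1R15A (0.45 ± 0.13, SE, adjusted p = 0.177) and the dimmer ATF4 probe (0.32 ± 0.12, SE, adjusted p = 0.255). Per line, 0 members differed by 2-fold or more by their brightest probe, beside 2.3% of genes lower and 0.977% higher in FaDu, and 1.65% and 0.607% in HSC3. The median difference over the members was 0.01 in FaDu and −0.06 in HSC3.

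The control channels moved with several of these differences. PPP1R15A was higher with miR-489 by 0.56 in FaDu and 0.33 in HSC3, but its control signal was 79.0 on the FaDu miR-489 array and 142.5 on the FaDu miR-504 array. From Cy5 levels alone, a comparison chosen after seeing the data, the PPP1R15A difference was −0.29 in FaDu and 0.08 in HSC3. DDIT4 turned from 0.26 and 0.29 to −0.14 and −0.47, with HSC3 control signals of 8766.5 and 17684. DDIT3 in FaDu moved from −0.37 to −1.03, past 2-fold, with control channels 0.68 apart. SESN2 moved from 0.01 to −0.36 in FaDu and gave −0.42 and −0.41 in HSC3, and the brighter TRIB3 probe moved from 0.00 and 0.04 to −0.27 and −0.15. HERPUD1 gave −0.04 and −0.37 by ratios and −0.09 and −0.45 by Cy5. The control channels of a line differed by over 1.5-fold for 4.68% of genes in FaDu and 9.48% in HSC3. The part of the control channels in these differences was not tested further. Whether both channels of a line held 1 RNA extract is not given in the sources used here.

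**Figure D2:**
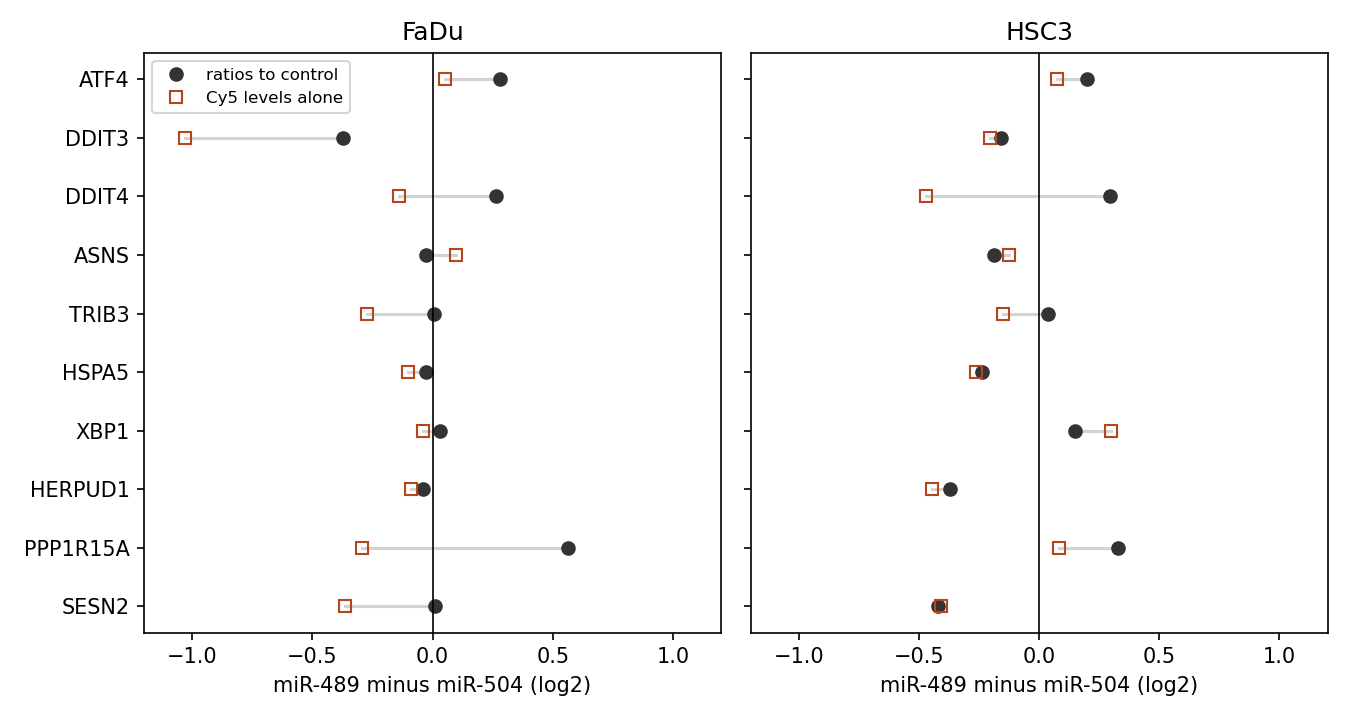
Difference of miR-489 minus miR-504 (x axis, log2) for the brightest probe of each member in FaDu and HSC3, from ratios to control (filled circles) and from Cy5 levels alone (open squares). The markers of DDIT4 lie on opposite sides of 0 in both lines and those of PPP1R15A in FaDu only.

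The lines differed in the control level of these genes. The Cy3 level, as log2 signal minus the array median, was at least 2-fold different between lines for 5 of 10 members: ATF4 and ASNS were higher in FaDu, and DDIT4, XBP1 and PPP1R15A were higher in HSC3. Of all genes, 11.1% were at least 2-fold higher in FaDu and 10.6% in HSC3. No test was made, because the pair of control channels of a line may be 1 extract.

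ASNS levels were 4.62 and 4.51 in FaDu against 2.10 and 2.01 in HSC3, a difference of 2.51 or 5.68-fold. PPP1R15A levels were −1.91 and −1.03 in FaDu against 1.02 and 1.24 in HSC3, a 6.06-fold difference. DDIT4 read 3.02 and 3.44 against 4.84 and 5.58, and XBP1 3.16 and 3.25 against 5.09 and 4.92. ATF4 was higher in FaDu by just the 2-fold limit, and 1.28 higher by its dimmer probe. HSPA5 was 0.69 higher in HSC3, HERPUD1 0.28 higher in FaDu, and TRIB3 differed by −0.01 with overlapping channels.

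**Figure D3:**
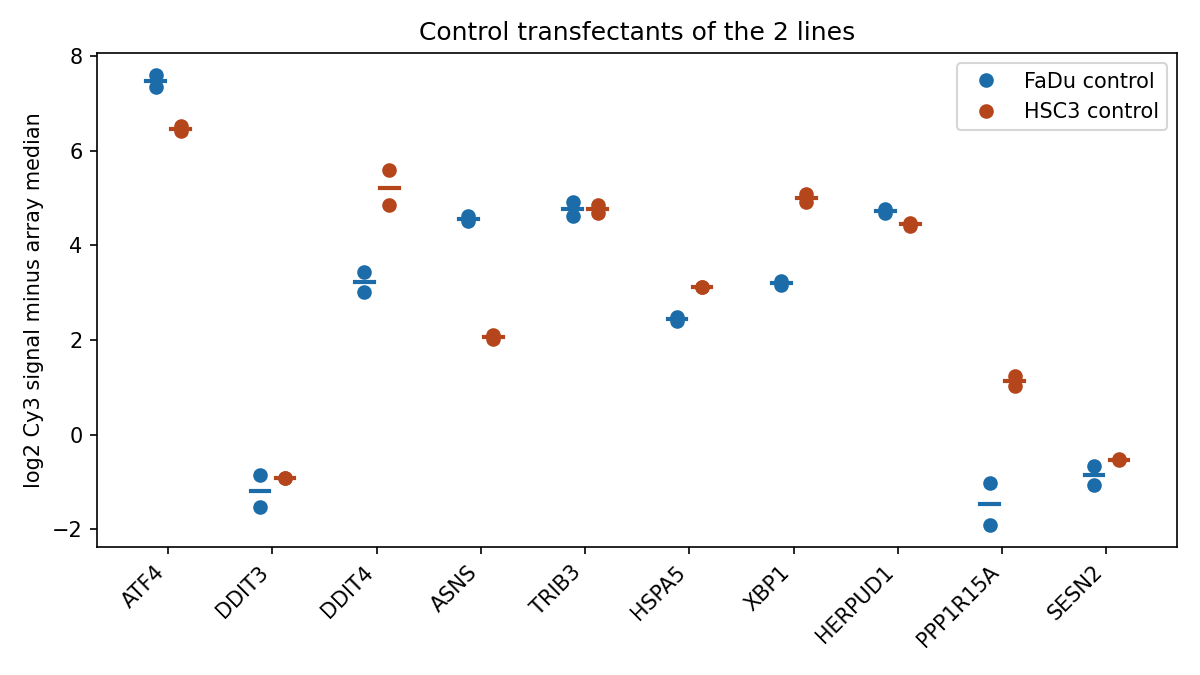
Control level of each member (y axis, log2 Cy3 signal minus the array median) in FaDu and HSC3, with a point for each of the 2 control channels of a line and a bar at their mean. ASNS lies higher in FaDu, PPP1R15A, DDIT4 and XBP1 lie higher in HSC3, and TRIB3 overlaps.

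Other genes of the pathway were counted in 6 lists. Calls count every probe tested, so that a gene can count more than once, and medians and ratios are those of the brightest probe of each gene. Of all probes tested, 30.5% were called higher and 26.6% lower with miR-489, and 26.2% and 23.4% with miR-504. Differences of the lists from these shares were not tested. Of 14 probes of cytosolic tRNA synthetases, which charge tRNAs and include ATF4 targets, 11 were called higher and 1 lower with miR-489, and 7 higher and 1 lower with miR-504. The median ratio of the 12 synthetase genes was 0.47, 0.23, 0.45 and 0.30. It was above 0 in all 8 background and normalisation settings on every array, whereas the median of the 10 members changed sign on 3 of the arrays. The synthetase median still depended on the setting. In FaDu with miR-504 it fell to 0.06 under total-signal normalisation, where the median of all genes fell to −0.18. Under loess the synthetase median on that array was 0.09, beside −0.02 for all genes. SARS read 1.19, 0.83, 1.12 and 0.84 and IARS 0.96, 0.72, 1.07 and 0.86. The brightest LARS probe read −1.37, −1.32, −1.64 and −1.32 but a second LARS probe 0.45, 0.42, 0.45 and 0.38, so its direction is not given.

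Among sensors and eIF2 genes, 8 of 23 probes were called higher and 3 lower with miR-489, and 6 and 2 with miR-504. EIF2AK4 encodes GCN2, the kinase that senses uncharged tRNA, and read 1.39, 1.06, 1.40 and 1.02. MBTPS1, a protease that cleaves ATF6, read 0.83, 0.37, 0.93 and 0.50, but another of its 3 probes 0.42, −0.36, 0.18 and 0.11. DNAJC3, an inhibitor of eIF2α kinases, read −0.33, −0.51, −0.91 and −0.77. Among ATF4 partners and outputs, 3 of 15 probes were called higher and 4 lower with miR-489, and 5 and 2 with miR-504. EIF4EBP1, a repressor of cap-dependent translation, had the highest ratios of any list at 2.07, 1.87, 1.92 and 1.73. CTH, of cysteine synthesis, read −0.81, −0.87, −0.52 and −0.97, and TXNIP, an arrestin that binds thioredoxin, −1.33, −0.42, −1.03 and −0.20.

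For amino acid synthesis and transport, 7 of 26 probes were called higher and 8 lower with miR-489, and 7 and 3 with miR-504. SLC3A2, the heavy chain of amino acid exchangers, read 0.95, 0.69, 0.77 and 0.72, and ALDH18A1, of proline synthesis, 0.70, 0.39, 0.87 and 0.60. PSPH, the last enzyme of serine synthesis, read −1.07, −0.31, −0.82 and −0.37 by its brightest probe. Another PSPH probe read only −0.28, −0.11, −0.23 and −0.25, and the remaining probe lay near the brightest. For ER chaperones and folding enzymes, 8 of 30 probes were called higher and 7 lower with miR-489, and 7 and 3 with miR-504. TXNDC5, a disulphide isomerase, read 0.95, 1.10, 0.92 and 1.11, while SDF2L1 read −0.65, −0.54, −0.84 and −0.45 and HYOU1, a chaperone of the HSP70 family, −0.39, −0.53, −1.09 and −0.44.

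For ER-associated degradation and translocation, 12 of 37 probes were called higher and 8 lower with miR-489, and 11 and 8 with miR-504. SEC61A1, the pore of the translocon, read 0.85, 0.78, 0.76 and 0.65 and SELK −0.60, −0.66, −0.72 and −0.64. The brightest SYVN1 probe, for a ubiquitin ligase that works with HERPUD1, read 0.99, 1.04, 0.71 and 0.99 but a second probe −0.46, −1.25, −0.96 and −1.03. Genes of this list thus had ratios in both directions.

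**Figure D4:**
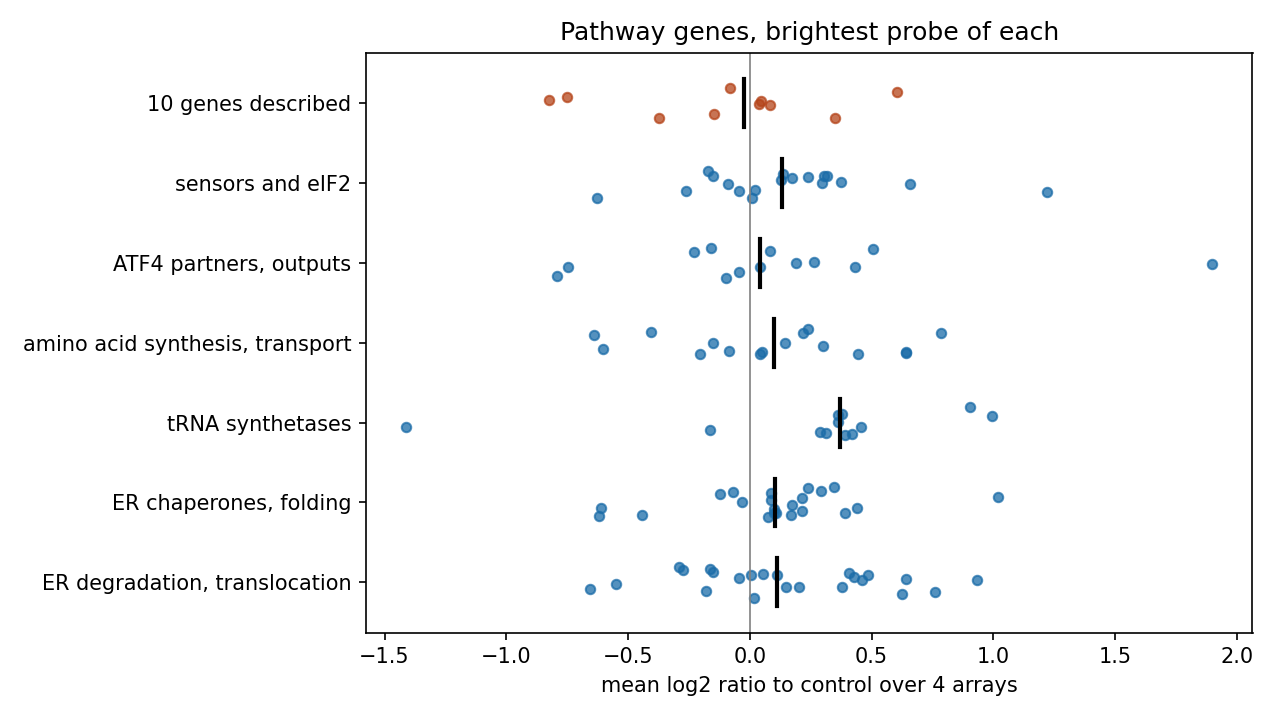
Mean log2 ratio to control over 4 arrays (x axis) of each gene above background on all arrays, by list (y axis), with a black bar at the median of each list. The 12 tRNA synthetases have the highest median, 0.37, and the 10 genes described have a median of −0.02.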

How the data were processed

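Arrays were grouped by cell line and miRNA from the sample labels, 1 array for each, all on 1 slide and in 1 scan. The authors deposited unnormalised median and mean intensity values of spots and local background from Feature Extraction 9.5.3.1. The deposited output also holds log10 ratios after that software's dye normalisation, and other columns of 0 or 1 deposited flags for signal above background, outliers and saturation, which served as filters. The study's methods name a different scanner and software, log2 ratios of background-subtracted medians and a global normalisation, which were followed here. The members and gene lists were chosen with earlier results of these data known.

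Outlier spots were left out and replicate spots averaged. Their spread is the standard deviation pooled over probes with at least 5 spots. It replaced the median over probes (0.0523 to 0.0591) after both the median and an earlier pooled value were known. Of 78 member medians under alternatives, 25 moved by more than the pooled value and 33 by more than the median. Genes were counted by their brightest probe, lower only where Cy3 and higher only where Cy5 was well above background. All 10 genes and every probe were named, with the 3 genes per list of largest mean ratio and the 3 of largest difference between miRNAs of 1 sign in both lines. limma was fitted to probes whose Cy3 signal was above background on each array (2 residual degrees of freedom, lines as replicates, Benjamini-Hochberg adjustment) and tested on simulated data. Its p-values measure the spread between lines, except for the FaDu minus HSC3 difference, where the 2 miRNAs served as replicates of a line. The number of arrays limits the precision. Alternatives were normexp (offset 50), no background subtraction, mean intensity, loess (span 0.3), total-signal normalisation, the deposited log10 ratios, other filters, probe choices and thresholds, a block, and leaving out arrays. Added after seeing the data were Cy5 levels alone, the line mean of the control channels and the lowest or highest probe of a gene. R 4.3.3, limma 3.58.1, Python 3.11.15, pandas 2.3.3 and matplotlib 3.10.9 were used.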

Additional observations from a re-analysis of the deposited data

Results flagged for a closer look

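In the lists of other pathway genes, 3 named genes differed between the miRNAs by the test of the difference itself, each lower with miR-489 than with miR-504 in both lines. By brightest probe, ATF3, a stress-induced transcription factor, differed by −1.43 (limma, adjusted p = 0.0498). CRELD1, an ER protein, differed by −1.17 (adjusted p = 0.0343) and SLC7A11, the cystine transporter, by −1.22 (adjusted p = 0.0343). The second ATF3 probe read −1.93, 0.35, −1.23 and −0.73 against control and was not above background in HSC3. Other SLC7A11 probes read −1.55, 0.09, −1.58 and −0.43, and −0.36, 0.82, −0.16 and 0.51. These other probes were not called. These genes were selected for their difference, so the test is not independent of the choice, and without any 1 array 0 probes were called in this contrast. None of the 10 genes described was called, where 0 of 14 probes passed at the adjusted p. An unadjusted p below 0.05 was found for 3 of the 14, beside 3870 of all 20912 probes.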

How the results depend on the processing

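The median log2 ratio of the 10 genes to control depended on the processing. Without background subtraction it was −0.032 for FaDu miR-504, and 0.010 and 0.0088 for HSC3 with miR-489 and miR-504. For FaDu miR-489, HSC3 miR-489 and HSC3 miR-504 it was −0.13, −0.32 and −0.31 with loess, −0.13, −0.29 and −0.30 with normexp and loess, and −0.17, −0.33 and −0.32 with the deposited ratios. Total-signal normalisation, which moved the median of all genes to between −0.24 and −0.18, gave −0.19, −0.29, −0.31 and −0.29. Averaging the probes of a gene gave −0.00290 for HSC3 miR-489. Of the alternatives chosen after seeing the data, the lowest probe gave −0.11 and −0.22 in FaDu, the highest probe 0.20, 0.00788, 0.16 and 0.10, and the line mean of the control channels −0.21 and −0.030 in FaDu. The cause of these shifts was not tested.

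Values at least 2-fold lower numbered 0 of 40 without background subtraction and 6 with the lowest probe. They numbered 2 with loess, normexp and loess, total-signal normalisation, averaged probes or the line mean of the controls. By the lowest probe, HSPA5 in FaDu with miR-489 read −1.15, but others of the 6 came from the second ASNS probe. On those arrays the Cy5 signal of that probe was not well above background. The same probe brought ASNS in HSC3 with miR-489 into the count with averaged probes. Values at least 2-fold higher numbered 1 with normexp and 1 without background subtraction. The 2-fold shares of all genes are not given for these settings, so these counts are not read as a result about the members. At 1.5-fold, 8 of 40 were lower and 3 higher, beside 17.8% and 11.6% of the values of all genes.

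In limma, probes called between the miRNAs numbered 663 with normexp, 498 without background subtraction, 350 with loess, 782 with both normexp and loess, 390 with the deposited ratios and 578 with the cell line as a replicate block. Leaving out any 1 array gave 0. Member probes called between the miRNAs stayed at 0 in each of these. For miR-504 against control, 8 member probes were called with loess and with normexp and loess, and 9 with total-signal normalisation, of 14 tested, beside 47.3% to 51.1% of all probes in these settings. With total-signal normalisation 35.9% of all probes were lower and 15.2% higher. With 1 array left out, 4 to 7 member probes were called for miR-489 and 2 to 5 for miR-504, and 3488 to 10920 of all probes for miR-504, the lone array being assumed to vary like the others. For miR-489, fewer of all probes were also called in each of these runs than with all 4 arrays. The member counts with 1 array left out are therefore not read as a result about the members. The brighter ATF4 probe turned to −0.23 (adjusted p = 0.0437) for miR-489 with the deposited ratios. The calls for the brighter TRIB3 and dimmer HSPA5 probes, and for HERPUD1 with miR-489, held in all limma alternatives run. With 1 array per condition and 2 lines, changes too small for these calls were not detectable.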
